A study of Mus musculus with 10 samples.

Results

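Thrombospondins and other matricellular proteins were followed in the lungs of mice kept in intermittent hypoxia or in normoxia. The genes sought were Thbs1, Thbs2, Thbs3, Thbs4, Tnc, Sparc, Postn, Ctgf (now Ccn2), Cyr61 (now Ccn1) and Spp1. A probe set counted for a gene where the array's annotation gave it exactly 1 symbol, and of several the one brightest on average across the 10 arrays stood for the gene. Probe sets were thus chosen by their mean level, without regard to group. By this rule 9 of the 10 genes had a probe set, among 12393 genes in all, and Spp1 was not analysed here. The genes were picked with earlier results of the same comparison known, so their differences and p-values describe them and are no independent evidence.

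Matricellular proteins are secreted into the extracellular matrix, where they regulate how cells attach, move and respond to growth factors rather than bearing mechanical load. Thrombospondin-1 binds the receptors CD36 and CD47 and can release TGF-beta from its latent complex, and it also restrains the growth of blood vessels. The CCN proteins Cyr61 and Ctgf are made in response to growth factors, stretch and the coactivators YAP and TAZ, while Sparc and periostin act in the assembly of collagen.

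Whole lungs of male mice of the inbred strain C57BL/6 were used, at an age of 6 to 8 weeks. The 5 control animals were kept in normoxia and the 5 treated animals in intermittent hypoxia, a repeated fall and return of oxygen. RNA of each animal went onto 1 array (Affymetrix Mouse Genome 430A 2.0), which gave 10 arrays. The sources used here give neither the oxygen levels nor the length of exposure. By its title, the series asks how adult alveolar surface area responds to chronic exposure.

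The values were log2 levels of 22626 probe sets, with array medians between 7.69 and 7.73. Sftpc, the surfactant protein of type II alveolar cells, lay between 14.5 and 14.7 on the 10 arrays, so the marker that defines the labelled tissue was present throughout. Some arrays stood apart. Values were spread less widely on normoxia arrays 2 to 4 (standard deviation 1.89 to 1.93) than on the remaining 7 (1.99 to 2.05). Normoxia array 2 also held the highest level of all 9 skeletal muscle markers, with the muscle actin Acta1 at 13.1 against 5.68 to 6.99 on the other 9 arrays. The members' results and the medians of the gene lists are therefore given with and without these arrays. In whole lung, fewer cells of a type and less RNA per cell cannot be told apart.

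Of the 9 matricellular genes, 4 were higher after intermittent hypoxia, namely Thbs1, Cyr61, Thbs3 and Sparc, and 5 did not pass the test. Thbs1 had a difference of 1.25 on the log2 scale, or 2.38-fold, Cyr61 one of 0.62, Thbs3 one of 0.44 and Sparc one of 0.26. Passing means a limma p below 0.05 after Benjamini-Hochberg adjustment over all 22626 probe sets. In the same fit 11.9% of all probe sets and 12.5% of the 12393 genes passed, 8.93% of the genes being higher and 3.60% lower. The differences of 7 of the 9 genes were positive, as were 53.2% of those of all genes. The median was 0.24 for the 9 genes, against 0.01 over all genes. The lowest hypoxia array lay above the highest normoxia array for 2 of the 9, Thbs1 and Thbs3, as for 5.76% of all genes. Without normoxia arrays 2 to 4, which leaves 2 normoxia arrays, limma called 0 of the 9 genes and 0.0807% of all genes. At an unadjusted p below 0.05 that fit held 2 of the 9 and 10.8% of all genes, against 6 of the 9 and 32.6% of all genes with all 10 arrays. In the fit without these arrays 8 of the 9 differences were positive, as were 50.9% of those of all genes, with medians of 0.20 and 0.00258.

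**Figure D1:**
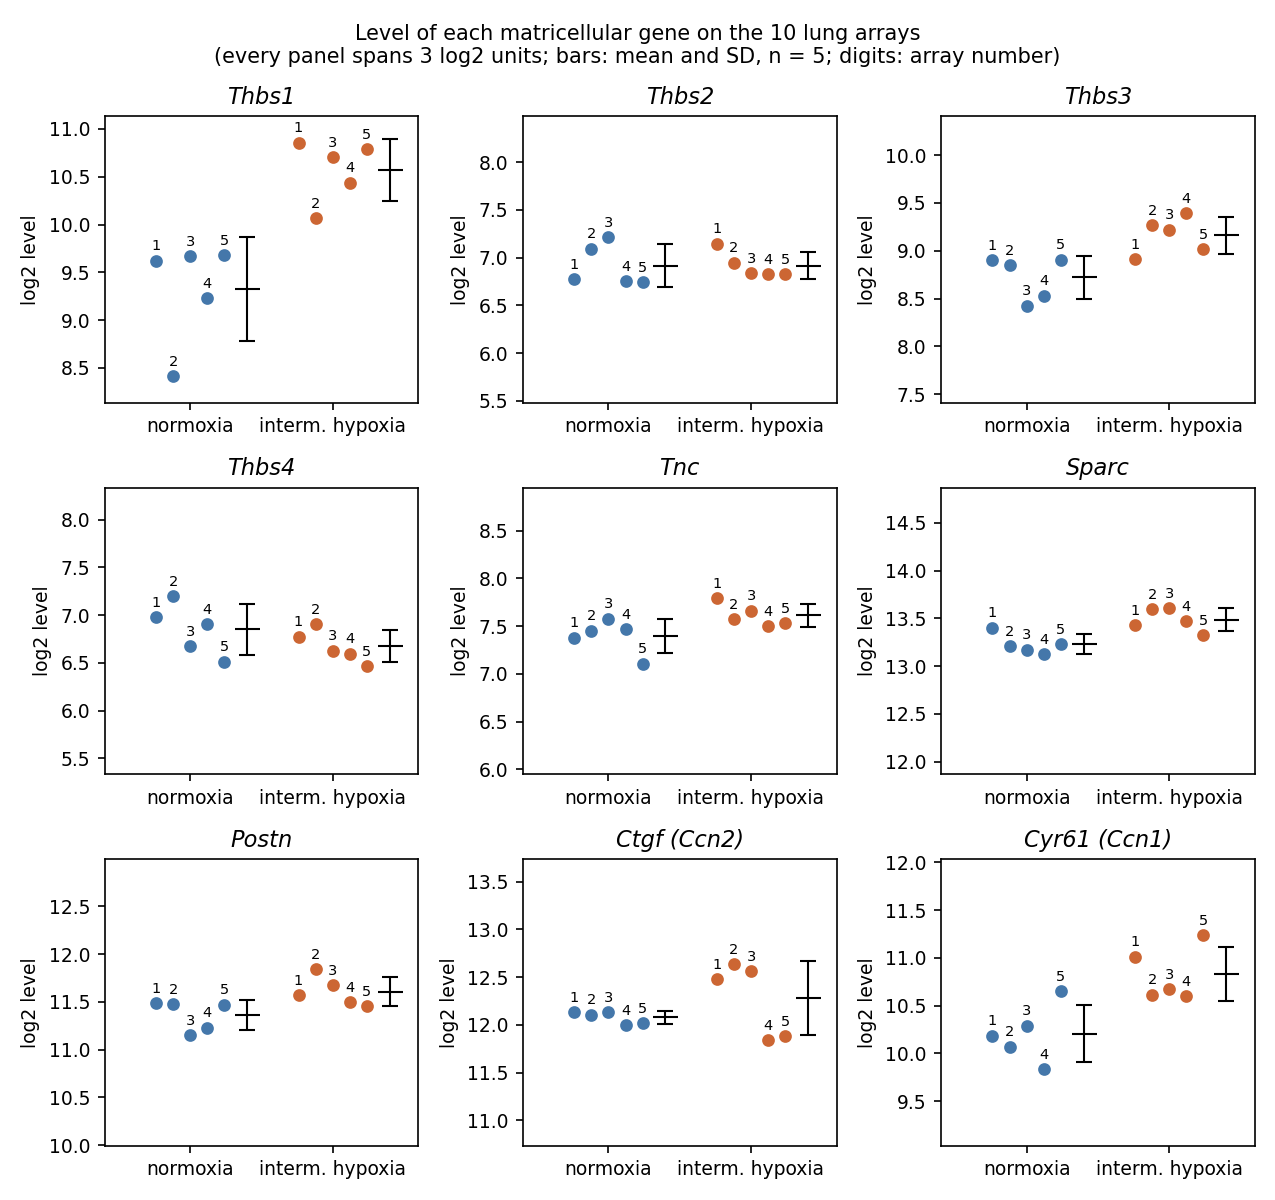
Log2 level of the 9 matricellular genes (vertical axis) on the 5 normoxia and 5 intermittent hypoxia arrays (points, with the array number above each), with the mean and SD of each group (n = 5) beside them. Every panel spans the same number of log2 units. Thbs1 shows the widest step between the groups, and the hypoxia arrays of Ctgf fall into a higher and a lower set.

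Thbs1 encodes thrombospondin-1, which platelets, fibroblasts, endothelial cells and macrophages all make. Its log2 level on normoxia arrays 1 to 5 was 9.62, 8.41, 9.67, 9.23 and 9.68. On hypoxia arrays 1 to 5 it was 10.85, 10.07, 10.70, 10.44 and 10.79. All 5 hypoxia arrays lay above all 5 normoxia arrays, and the array furthest from its group was normoxia array 2, the one with muscle RNA. The normoxia mean was 9.32 ± 0.54 and the hypoxia mean 10.57 ± 0.32 (SD, n = 5 each), a log2 difference of 1.25 (SE 0.23, 95% interval 0.76 to 1.74, limma adjusted p = 0.00845). As a fold the interval ran from 1.69 to 3.34. Leaving out any 1 array kept the call, with differences of 1.02 to 1.38. The smallest of these, 1.02, came without normoxia array 2 (adjusted p = 0.00873). The difference was 0.92 without normoxia arrays 2 to 4 together, with an adjusted p of 0.128.

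The second Thbs1 probe set, 1450377_at, had levels of 7.20 to 8.04 in normoxia and 7.92 to 9.002 with hypoxia. The log2 rise was 0.86 (SE 0.19, adjusted p = 0.0166), and 4 of the 5 hypoxia arrays lay above every normoxia array. A further probe set, 1421811_at, is annotated to both Pald1 and Thbs1 and was left out by the rule. Its 5 normoxia levels ran from 10.08 to 10.94 and its 5 hypoxia levels from 11.43 to 11.63, with a difference of 0.90 (SE 0.14, adjusted p = 0.00503). That difference was 0.60 without normoxia arrays 2 to 4 and still passed (adjusted p = 0.0440).

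**Figure D2:**
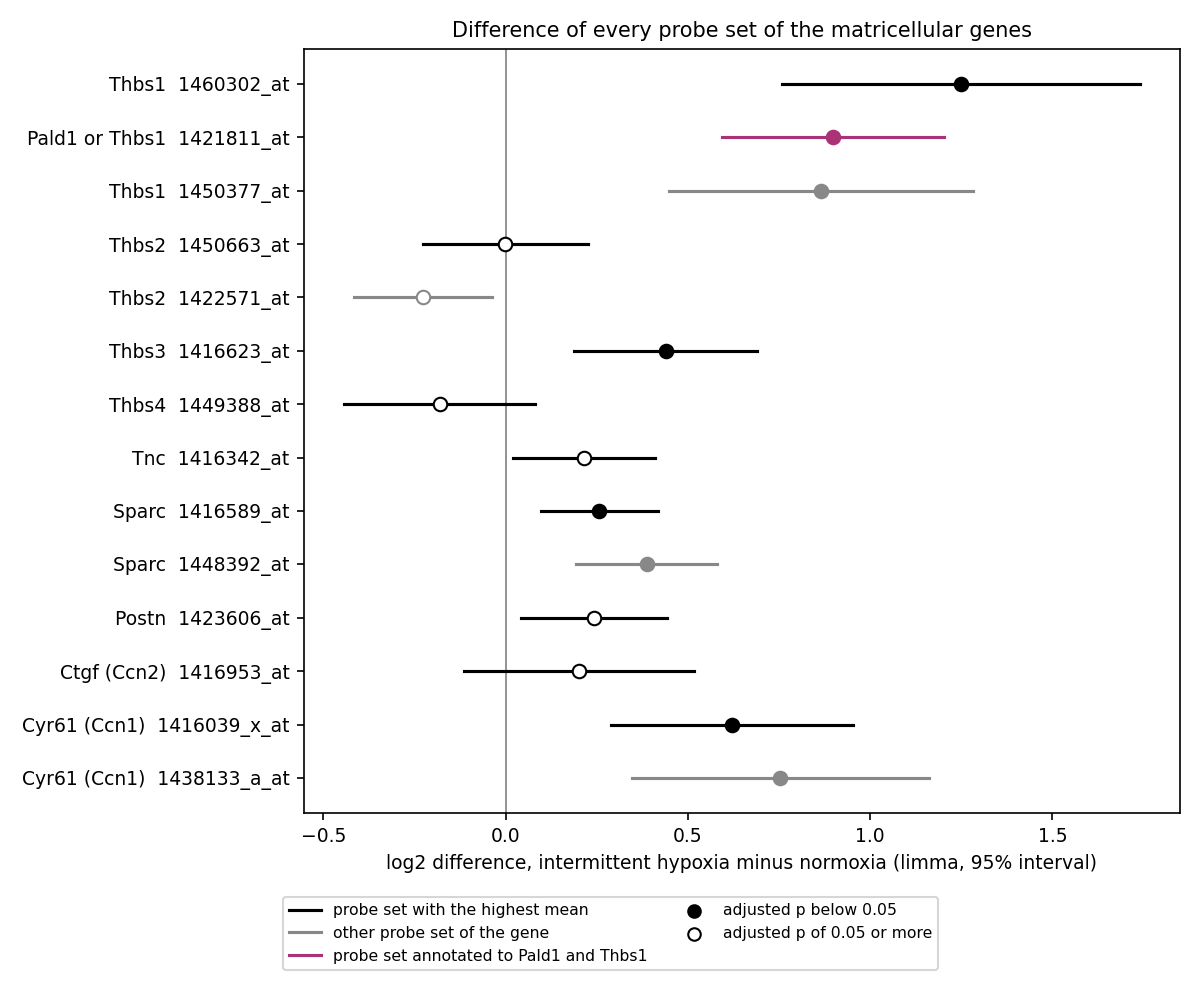
Log2 difference, intermittent hypoxia minus normoxia, of every probe set annotated to a matricellular gene, with its 95% interval from limma (n = 5 each). Filled points have an adjusted p below 0.05. The Thbs1 probe sets lie at 0.86 to 1.25, both Cyr61 probe sets at 0.62 and 0.75, and both Sparc probe sets at 0.26 and 0.39.

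The other thrombospondins are the trimer-forming Thbs2 and the pentamer-forming Thbs3 and Thbs4, of which the last belongs mainly to muscle and tendon. Thbs3 was at 8.90, 8.85, 8.42, 8.53 and 8.91 on normoxia arrays 1 to 5 and at 8.91, 9.27, 9.22, 9.39 and 9.02 on hypoxia arrays 1 to 5. The groups were separated by a hair, since the lowest hypoxia array (8.909) barely exceeded the highest normoxia array (8.906). Its means of 8.72 ± 0.23 and 9.16 ± 0.20 (SD, n = 5 each) differed by 0.44 (SE 0.12, 95% interval 0.19 to 0.69, limma adjusted p = 0.0312). The call of Thbs3 was lost without any 1 of normoxia arrays 3 and 4 or hypoxia arrays 2, 3 and 4, where its adjusted p was 0.0675 to 0.0842. Its difference was 0.26 without normoxia arrays 2 to 4 (adjusted p = 0.518).

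Thbs2 did not pass. Its levels were 6.78, 7.09, 7.21, 6.75 and 6.74 in normoxia and 7.15, 6.95, 6.84, 6.82 and 6.83 in intermittent hypoxia, so the groups overlapped fully. Both means were 6.92, and the 95% interval of the difference ran from -0.23 to 0.22 (limma adjusted p = 0.998). Its second probe set, 1422571_at, had a difference of -0.23 (SE 0.09, adjusted p = 0.1001). Thbs4 did not pass either, with 6.98, 7.20, 6.68, 6.90 and 6.51 in normoxia and 6.77, 6.90, 6.63, 6.595 and 6.47 in intermittent hypoxia. Its difference was -0.18 (95% interval -0.44 to 0.08, adjusted p = 0.326), and its highest value was on normoxia array 2.

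The change of Thbs1 was set against those of the other thrombospondins within each array, by exact two-sided permutation tests over the 252 splits of the arrays, adjusted over 4 comparisons. These pairs, too, were chosen with the results known. Thbs1 moved by 1.25 more than Thbs2 on the log2 scale (SE 0.32, exact p = 0.00794, adjusted 0.0159) and by 1.43 more than Thbs4 (SE 0.40, exact p = 0.00794, adjusted 0.0159). That p of 0.00794 is the smallest this design allows. Thbs2 and Thbs4 lay below the array medians on every array, and Thbs1 above them. Whether their low level bears on the size of their changes was not tested. Against Thbs3 the excess was 0.81 (SE 0.35, exact p = 0.0476, adjusted 0.0635), which missed the threshold after adjustment. The latter passed without normoxia array 3 (adjusted 0.0212) or without hypoxia array 2 (adjusted 0.0317). In the other 11 alternatives run for this comparison it did not pass. Without normoxia array 2 the excess was 0.55 (adjusted 0.138), and with all probe sets of a gene averaged it was 0.62 (adjusted 0.119).

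Cyr61 and Ctgf are the CCN members that bind integrins and heparan sulfate on fibroblasts and endothelium. Cyr61 was at 10.18, 10.07, 10.29, 9.83 and 10.65 on normoxia arrays 1 to 5 and at 11.01, 10.62, 10.67, 10.60 and 11.23 on hypoxia arrays 1 to 5. Normoxia array 5 reached into the hypoxia range, and 3 of the 5 hypoxia arrays lay above all normoxia arrays. The means were 10.21 ± 0.30 and 10.83 ± 0.28 (SD, n = 5 each), a difference of 0.62 (SE 0.15, 95% interval 0.29 to 0.95, limma adjusted p = 0.0240) or 1.54-fold. The other Cyr61 probe set, 1438133_a_at, rose by 0.75 (SE 0.19, adjusted p = 0.0253). Both calls were lost without normoxia array 2, normoxia array 4 or hypoxia array 1, with adjusted p of 0.0564 to 0.0649 for the first probe set and 0.0601 to 0.0700 for the second. Quantile normalization also ended the call of Cyr61 (difference 0.47, adjusted p = 0.0820). The difference was 0.41 without normoxia arrays 2 to 4 (adjusted p = 0.484).

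Ctgf did not pass. It lay between 11.996 and 12.13 on the 5 normoxia arrays, while hypoxia arrays 1 to 5 were at 12.48, 12.63, 12.56, 11.84 and 11.88. Hypoxia arrays 1, 2 and 3 thus lay above every normoxia array, and hypoxia arrays 4 and 5 below every one. Its SD was 0.07 in normoxia and 0.39 in intermittent hypoxia, and the difference of 0.20 had a 95% interval of -0.12 to 0.52 (limma adjusted p = 0.367). Cyr61 moved by 0.42 more than Ctgf (SE 0.28, exact two-sided permutation p = 0.183, adjusted 0.183, n = 5 each).

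The promoters of 8 of the 10 genes, all but Thbs1 and Ctgf, were matched in RefSeq's promoters (build GRCm38.p6) and searched in the 250 bases before the start site for motifs of the factors that act on this family. The 4 below are shown because Cyr61, Thbs3 and Sparc rose and Thbs4 did not. Each is read 5′ to 3′ on the gene's strand, ending at the start site, with matches in capitals.
Cyr61, chr3:145649986-145650235, minus strand: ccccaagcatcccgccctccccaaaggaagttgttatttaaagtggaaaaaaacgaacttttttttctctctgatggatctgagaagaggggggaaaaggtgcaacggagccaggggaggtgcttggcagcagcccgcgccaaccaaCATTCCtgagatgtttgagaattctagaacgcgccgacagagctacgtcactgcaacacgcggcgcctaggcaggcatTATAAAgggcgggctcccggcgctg
Thbs3, chr3:89214930-89215179, plus strand: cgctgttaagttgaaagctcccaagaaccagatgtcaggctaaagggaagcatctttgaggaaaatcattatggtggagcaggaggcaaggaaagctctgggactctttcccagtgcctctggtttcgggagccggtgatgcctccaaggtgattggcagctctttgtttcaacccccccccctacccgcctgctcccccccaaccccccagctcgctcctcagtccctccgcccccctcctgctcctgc
Sparc, chr11:55420081-55420330, minus strand: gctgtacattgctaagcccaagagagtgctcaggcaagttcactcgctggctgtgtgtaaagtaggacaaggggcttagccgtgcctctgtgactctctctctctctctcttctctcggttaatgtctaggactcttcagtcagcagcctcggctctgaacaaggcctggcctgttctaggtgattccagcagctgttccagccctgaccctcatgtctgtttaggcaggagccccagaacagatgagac
Thbs4, chr13:92794819-92795068, minus strand: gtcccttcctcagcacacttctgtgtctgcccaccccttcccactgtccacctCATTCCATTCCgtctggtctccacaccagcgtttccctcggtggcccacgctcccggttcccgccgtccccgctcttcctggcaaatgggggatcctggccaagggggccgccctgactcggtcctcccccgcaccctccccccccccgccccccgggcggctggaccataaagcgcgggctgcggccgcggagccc
The Cyr61 promoter held the TEAD motif GGAATG, in its reverse complement, at positions -103 to -98 from the start site, and the TATA motif TATAAA at -25 to -20. The Thbs4 promoter held 2 overlapping TEAD matches. TATAAA, on either strand, was found in 4 of the 8 promoters, those of Cyr61, Thbs2, Tnc and Spp1. Of these, Thbs2 and Tnc did not pass the limma test, and Spp1 was not analysed. GGAATG was found in 2 of the 8, those of Cyr61 and Thbs4. Of all 19826 promoters, 13.1% held GGAATG on either strand and 14.9% held TATAAA. No match to the AP-1 motif TGANTCA (7.51% of all promoters), the palindrome GTCTAGAC bound by SMADs (0.161%), the core ACGTG of hypoxia response elements (15.7%), the E-box CACGTG (5.57%), the CRE TGACGTCA (1.43%) or the CArG box (1.48%) was found in the 8 promoters. The E-box contains the ACGTG core, so those matches can overlap. A match is a run of letters and not a measured site.

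Sparc, periostin and tenascin-C are the members most closely tied to collagen and to tissue remodelling. Sparc was at 13.40, 13.21, 13.17, 13.13 and 13.23 in normoxia and at 13.42, 13.59, 13.61, 13.47 and 13.32 in intermittent hypoxia. Normoxia array 1 overlapped the hypoxia range. The means of 13.23 ± 0.10 and 13.48 ± 0.12 (SD, n = 5 each) differed by 0.26 (SE 0.07, 95% interval 0.10 to 0.42, limma adjusted p = 0.0426). The call was lost without normoxia array 2, 3 or 4 or hypoxia array 1, 2, 3 or 4 (adjusted p 0.0684 to 0.109). Quantile normalization also ended it (difference 0.14, adjusted p = 0.165), and so did the trend and robust options of eBayes (adjusted p = 0.0587). Without normoxia arrays 2 to 4 the difference was 0.17 (adjusted p = 0.623). The second Sparc probe set, 1448392_at, had normoxia levels of 12.33 to 12.65 and hypoxia levels of 12.69 to 13.08, without overlap. It rose by 0.39 (SE 0.09, adjusted p = 0.0190), a call lost only without normoxia array 3 or 4 among the leave-one-out fits (adjusted p 0.0516 to 0.0546).

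Postn and Tnc had positive differences that did not pass. Postn, which encodes periostin, was at 11.48, 11.48, 11.15, 11.23 and 11.47 in normoxia and at 11.57, 11.84, 11.67, 11.50 and 11.45 in intermittent hypoxia. Only hypoxia array 5 lay below the highest normoxia array, and the difference was 0.24 (SE 0.09, 95% interval 0.04 to 0.44, limma adjusted p = 0.0980). Tnc, which encodes tenascin-C, was at 7.38, 7.45, 7.58, 7.47 and 7.11 in normoxia and at 7.79, 7.57, 7.66, 7.501 and 7.53 in intermittent hypoxia. Its difference was 0.22 (SE 0.09, 95% interval 0.02 to 0.41, adjusted p = 0.124). Both passed under SAM with 100 permutations, the method that the series' design text names, with q values of 0.0293 for Postn and 0.0370 for Tnc, a setting that called 34.5% of all probe sets. Neither passed under SAM with the mean number of false calls (0.0592 and 0.0702), which called 19.98% of all probe sets.

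**Figure D3:**
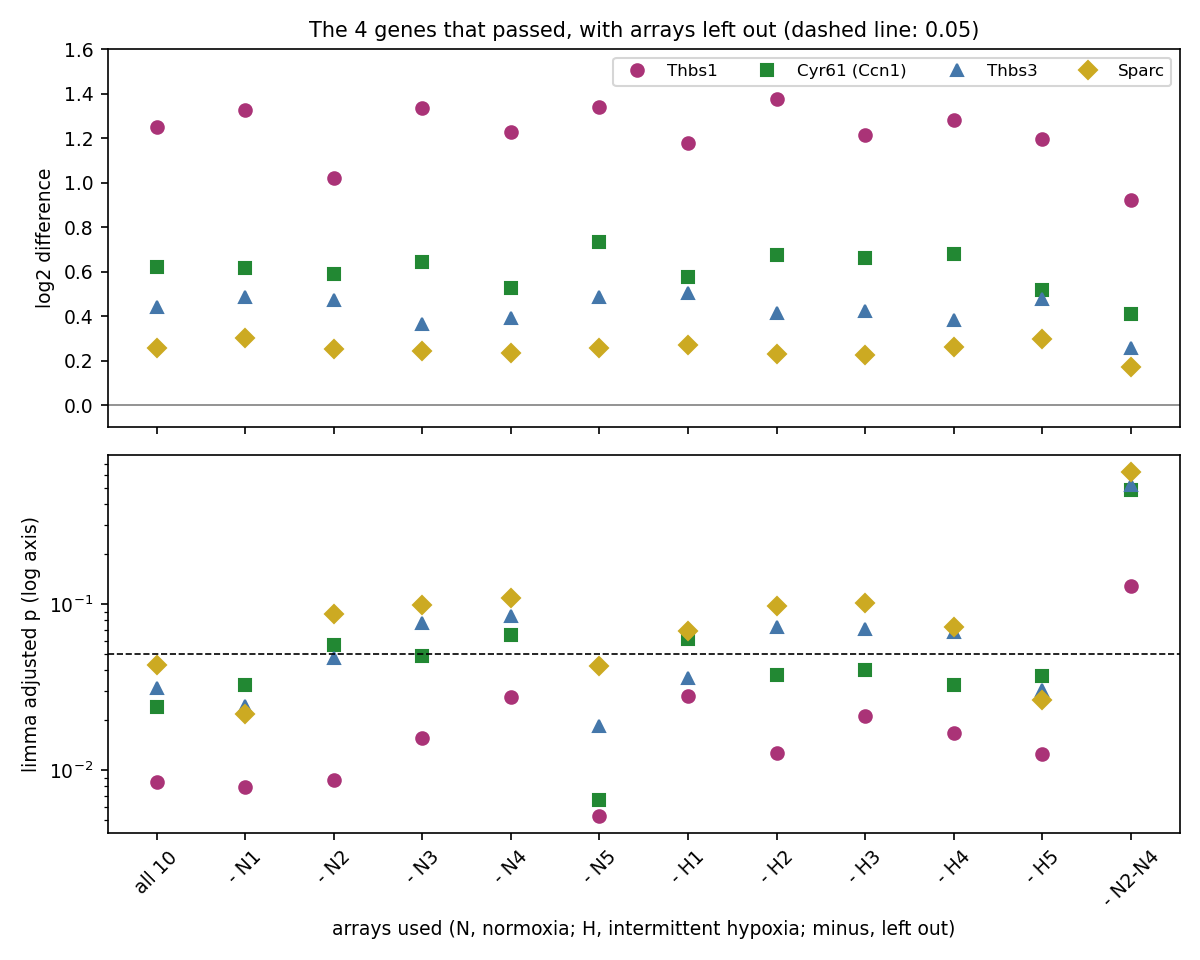
Log2 difference (upper panel) and limma adjusted p on a log axis (lower panel) of the 4 genes that passed, with all 10 arrays, without each array in turn, and without normoxia arrays 2 to 4. Thbs1 stays below the dashed line at 0.05 in each leave-one-out fit and lies at 0.128 without normoxia arrays 2 to 4, while the other 3 genes cross the line in 3 to 7 of the leave-one-out fits.

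The genes whose profile over the 10 arrays was most like that of Thbs1 were Itga8, Sema3e, Itgb6, Emcn, Slc38a5 and Ncald. Likeness was the root mean square difference between centred log2 values, which was 0.351 for Itga8 and 0.428 for Ncald. Itga8 and Itgb6 encode integrin subunits, Sema3e a guidance signal of vessels and axons, and Emcn an endothelial surface mucin. Cyr61 was the 19th nearest profile to Thbs1, at 0.455. In the other direction Thbs1 was only the 8672nd nearest to Cyr61. Nearest to Cyr61 were Cdh11, a cadherin of mesenchymal cells, at 0.202, Ptprd at 0.203 and Slc38a5 at 0.204. Nearest to Thbs3 were Capg, an actin-capping protein, at 0.0844, 2610001J05Rik at 0.0909 and Hnrnpr at 0.0925. Nearest to Sparc were Gtpbp4 at 0.0387, Anxa3 at 0.0422 and Arpc4 at 0.0440. All of these profiles come from the same 10 arrays, and a gene that varies little is near many others. The values were centred over all 10 arrays, so the step between the groups enters the likeness. Genes with a step of similar size are thus drawn near by construction.

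Further members of the matricellular families moved in both directions. Of 21 listed genes 18 were measured, of which 5 were higher, 2 lower and 11 did not pass, with a median of 0.13. Over all genes 8.93% were higher and 3.60% lower. Ccn3 (Nov), a relative of Cyr61 and Ctgf, fell by 0.57 on the log2 scale from 9.44 ± 0.13 to 8.86 ± 0.19 (SD, n = 5 each, SE 0.09, limma adjusted p = 0.00594), with no overlap, as for 2.85% of all genes in that direction. Ccn5 (Wisp2), another relative, rose by 0.42 (SE 0.09, adjusted p = 0.0158). Igfbp7, a secreted binding protein of insulin-like growth factors, rose by 0.57 (adjusted p = 0.0140). Fstl1 and Tgfbi rose by 0.35 and 0.29 (adjusted p = 0.0210 and 0.0318), and Smoc2, a relative of Sparc, fell by 0.39 (adjusted p = 0.0196). Sparcl1, the nearest relative of Sparc, had a difference of 0.40 and Comp, the thrombospondin of cartilage, one of -0.21 (adjusted p = 0.0534 and 0.0756).
Without any 1 of normoxia arrays 2, 3 and 4 or hypoxia arrays 2 and 3, the count of higher genes fell from 5 to 2, and the call of Fstl1 was among those lost (adjusted p up to 0.0608). Tgfbi was also lost without hypoxia array 1 or 4 (up to 0.0837), and Smoc2 without normoxia array 3 or 4 or hypoxia array 1 (up to 0.0530). The calls of Ccn3, Ccn5 and Igfbp7 passed in all 10 leave-one-out fits. Quantile normalization left 1 gene higher and 2 lower. The median of the list was 0.12 without normoxia arrays 2 to 4.

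Receptors of these proteins included several that rose. Of 25 listed 24 were measured, 6 were higher and 18 did not pass, with a median of 0.11. The share of higher genes over all genes was 8.93%. Itga8, the integrin subunit that pairs with beta 1 and is found on lung mesenchyme, rose from 8.27 ± 0.32 to 9.27 ± 0.31 (SD, n = 5 each), a difference of 1.00 (SE 0.16, limma adjusted p = 0.00594) or 2.00-fold. Itgb6, the epithelial integrin subunit that activates latent TGF-beta, rose by 0.73 (SE 0.13, adjusted p = 0.00794), and the heparan sulfate carrier Sdc1 by 0.50 (SE 0.10, adjusted p = 0.0130). The groups did not overlap for any of these 3, as for 5.76% of all genes in that direction. All 3 passed in every leave-one-out fit. The leukocyte integrin Itgb2 rose by 0.58, the hyaluronan and osteopontin receptor Cd44 by 0.45 and Calr, which binds thrombospondin-1 at the cell surface, by 0.42 (adjusted p = 0.0226, 0.0240 and 0.0241). The call of Itgb2 was lost without normoxia array 2 or 3 or hypoxia array 2 (adjusted p up to 0.0608). That of Cd44 was lost without normoxia array 2, 3 or 4 or hypoxia array 1, 2 or 4 (up to 0.0675), and that of Calr without normoxia array 3 or 4 or hypoxia array 1, 2 or 4 (up to 0.0678). The count fell to 3 without normoxia array 3 or hypoxia array 2. Without normoxia arrays 2 to 4 the median of the receptors was 0.0210. Itgb1, the common partner of many integrins, had a difference of 0.34 (adjusted p = 0.0747) and Ptprz1 one of -0.21 (adjusted p = 0.0801). Cd36 and Cd47, whose products bind thrombospondin-1, did not pass. Their differences were 0.098 and -0.096 (adjusted p = 0.496 and 0.431).

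**Figure D4:**
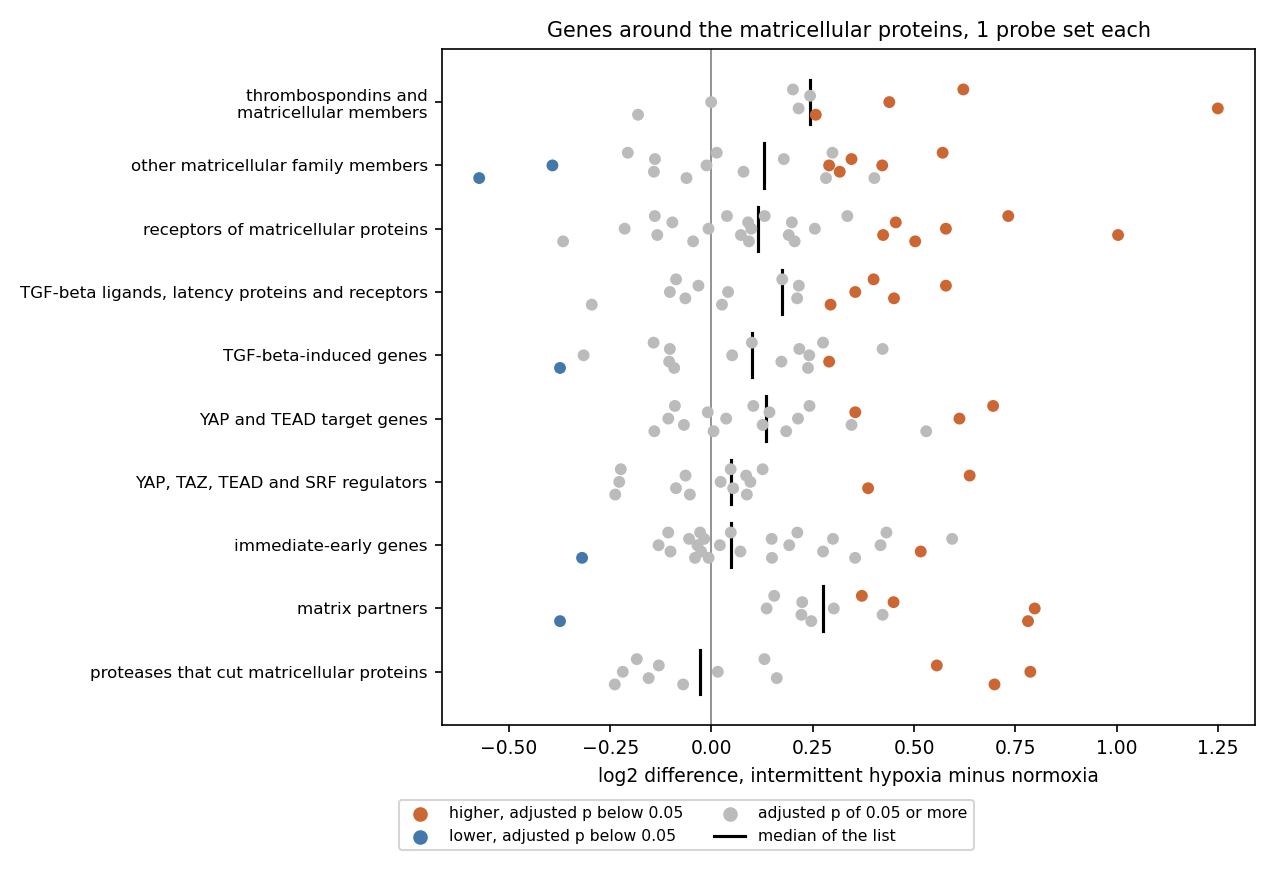
Log2 difference, intermittent hypoxia minus normoxia, of each gene (points, 1 probe set each) in the matricellular set and 9 lists around it, with the median of each list (bar). Coloured points passed the limma test at an adjusted p below 0.05. The medians lie between -0.03 and 0.27, and Thbs1 at 1.25 is the point furthest from 0.

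TGF-beta, which thrombospondin-1 can activate, was represented by 15 measured genes of 16 listed, of which 5 were higher and 10 did not pass (median 0.17). Among all genes 8.93% were higher. The ligand Tgfb3 rose by 0.40 (SE 0.07, limma adjusted p = 0.00685), Tgfb2 by 0.35 (SE 0.07, adjusted p = 0.00929), the receptor Tgfbr2 by 0.58 (SE 0.12, adjusted p = 0.0130) and the signal carrier Smad2 by 0.29 (SE 0.06, adjusted p = 0.0135). These 4 passed in every leave-one-out fit. Ltbp4, which stores latent TGF-beta in the matrix, rose by 0.45 (adjusted p = 0.0380), a call lost without normoxia array 2, 3 or 4 or hypoxia array 1, 2, 3 or 4 (up to 0.0926). Tgfb1 had a difference of 0.21 (adjusted p = 0.0945). Of 15 measured genes of 17 that TGF-beta induces, 1 was higher, 1 lower and 13 did not pass, with a median of 0.10. Such counts stand beside 8.93% higher and 3.60% lower among all genes. Lox, which cross-links collagen, fell by 0.37 (SE 0.08, adjusted p = 0.0148) and passed in every leave-one-out fit. Tgfbi was the higher one. The medians without normoxia arrays 2 to 4 were 0.0516 for the TGF-beta genes and -0.0116 for the genes it induces, the second with its sign changed. Pmepa1 had a difference of 0.24 and Fn1 one of 0.42 (adjusted p = 0.0639 and 0.0848).

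Targets of the coactivators YAP and TAZ with TEAD, of which Cyr61 and Ctgf are textbook examples, held 18 other measured genes of 22 listed, with 3 higher, 15 not passing and a median of 0.13. Beside this list and the next 2 stand 8.93% of all genes higher and 3.60% lower. Igfbp3 rose by 0.70 from 9.48 ± 0.18 to 10.18 ± 0.07 (SD, n = 5 each, SE 0.08, limma adjusted p = 0.00163), Myof by 0.61 (SE 0.12, adjusted p = 0.0107) and Tgfb2 as given above. Ajuba had a difference of 0.21 and Dlc1 one of 0.53 (adjusted p = 0.0744 and 0.115). Among 15 measured regulators of this axis, of 17 listed, 2 were higher and 13 did not pass (median 0.05). Wwtr1, which encodes TAZ, rose by 0.64 (SE 0.12, adjusted p = 0.0106), and Srf by 0.39 (SE 0.09, adjusted p = 0.0171). Igfbp3, Myof, Wwtr1 and Srf passed in every leave-one-out fit, and quantile normalization ended the call of Srf (adjusted p = 0.0691). Cyr61 and Thbs1 are also immediate-early genes, transcribed within minutes of a stimulus. Of 25 such genes other than these, all measured, 1 was higher, 1 lower and 23 did not pass, with a median of 0.05. Ier3 rose by 0.52 and Fosl1 fell by 0.32 (adjusted p = 0.0253 and 0.0255), while Egr2 had a difference of 0.59 and Nr4a1 one of 0.35 (adjusted p = 0.132 and 0.218). Medians without normoxia arrays 2 to 4 were 0.0653 for the TEAD targets, 0.0245 for the regulators and -0.0116 for the immediate-early genes, the last of opposite sign to that with all arrays. The call of Ier3 was lost without normoxia array 2, 3 or 4 or hypoxia array 1 or 4 (up to 0.0695), and that of Fosl1 without normoxia array 2, 3 or 4 or hypoxia array 1, 2 or 3 (up to 0.0699).

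The matrix that these proteins bind was higher in part. Of 13 listed partners 12 were measured, 4 were higher, 1 lower and 7 did not pass, with a median of 0.27. For these and the proteases below, the shares over all genes were 8.93% higher and 3.60% lower. The fibrillar collagens Col1a1, Col3a1 and Col1a2 rose by 0.80, 0.78 and 0.45 (limma adjusted p = 0.00422, 0.00929 and 0.00996) and passed in every leave-one-out fit. Col6a1 rose by 0.37 (adjusted p = 0.0345), a call lost without normoxia array 2, 3 or 4 or hypoxia array 1, 2, 3 or 4 (up to 0.0872), and Lox was the lower one. Of 12 proteases that cut matricellular proteins, all measured, 3 were higher and 9 did not pass, with a median of -0.03. Adamts1, which cleaves thrombospondins, rose by 0.79 (SE 0.14, adjusted p = 0.00768) and the gelatinase Mmp2 by 0.70 (SE 0.14, adjusted p = 0.0118), both in every leave-one-out fit as well. Mmp3 rose by 0.56 (adjusted p = 0.0280), a call lost without normoxia array 2, 3 or 4 or hypoxia array 1, 2 or 3 (up to 0.0753). Without normoxia arrays 2 to 4, limma called 0 of the 147 measured genes of these 9 lists, of which 33 (22.4%) had an unadjusted p below 0.05, against 10.8% of all genes. Since the lists were chosen with results of these same arrays known, that share is no independent evidence. The medians were then 0.18 for the matrix partners and 0.0595 for the proteases, the latter of opposite sign to that with all arrays.

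Markers of cell types were set beside the members, since platelets, fibroblasts, macrophages and muscle all make some of them. The counts of called markers, here and below, stand beside 8.93% of all genes higher and 3.60% lower. Counts of positive differences stand beside 53.2% of all genes. Platelets store thrombospondin-1 in their granules. All 9 measured platelet and megakaryocyte markers, of 13 listed, had negative differences (median -0.37), and Clec1b and Gp1bb fell by 0.59 and 0.58 (limma adjusted p = 0.0373 and 0.0486). Their summed level, as log2, was 12.02 to 12.85 in normoxia and 11.75 to 12.23 in intermittent hypoxia. Both calls were lost without normoxia array 3 or 4 or hypoxia array 1, 2, 3 or 4, and that of Gp1bb also without normoxia array 1 (up to 0.0876 for Clec1b and 0.106 for Gp1bb). The mean of the platelet markers, as centred log2, was highest on normoxia array 1 at 0.68 and at most 0.18 on normoxia arrays 2 to 4. Whether platelets bear on the difference of Thbs1 was not tested.
Of 15 fibroblast markers, all measured, 6 were higher and 9 did not pass (median 0.22), with 11 positive and 4 negative differences. Their summed level was 15.49 to 15.83 in normoxia and 15.70 to 16.00 in intermittent hypoxia. The matrix proteins Mfap5, Col14a1 and Col13a1 rose by 0.85, 0.60 and 0.75 (adjusted p = 0.00137, 0.00594 and 0.00646). Of 10 measured macrophage and monocyte markers 4 were higher (median 0.16), with 7 positive and 3 negative differences. Cd68 was at 0.74, Itgax at 0.66 and Ccr2 at 0.60 (limma adjusted p = 0.00721, 0.00929 and 0.0209). Summed levels were 14.52 to 14.79 in normoxia and 14.57 to 14.89 in intermittent hypoxia. The count of higher markers fell to 2 without normoxia array 3. The call of Ccr2 was lost without normoxia array 2, 3 or 4 or hypoxia array 1 (up to 0.0573). The part of these cells in the differences of Thbs1, Cyr61, Thbs3 and Sparc was not tested.

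All 9 skeletal muscle markers had negative differences (median -0.79), with summed levels of 10.22 to 14.36 in normoxia and 9.96 to 10.30 in intermittent hypoxia. Without normoxia arrays 2 to 4 that median was -0.10. Casq1 fell by 1.25 (limma adjusted p = 0.0365), a call lost without normoxia array 2, 3 or 4 or hypoxia array 1, 2, 3 or 4 (up to 0.0949). Of 10 endothelial markers 2 were higher, Emcn at 1.03 and Aplnr at 1.15 (adjusted p = 9.34e-05 and 0.00915), with summed levels of 14.29 to 14.84 and 14.63 to 15.00. In the fit without normoxia arrays 2 to 4 Emcn passed (difference 0.91, adjusted p = 0.00775), Aplnr did not (0.81, adjusted p = 0.123), and the endothelial median was -0.0251 in place of 0.21. Of 9 smooth muscle markers Mylk was higher (0.34, adjusted p = 0.0195), a call lost without normoxia array 3 or 4 or hypoxia array 1 (up to 0.0562). Of 5 measured mesothelial markers Upk3b was higher (0.55, adjusted p = 0.0334), a call that passed only without normoxia array 5 or hypoxia array 1 among the leave-one-out fits (otherwise up to 0.0840). Of 9 alveolar epithelial markers Aqp5 was higher (0.53, adjusted p = 0.00915). Of 9 cardiac markers Actn2 was lower (-0.49, adjusted p = 0.0241), in a list with 5 positive and 4 negative differences. Of 6 measured adipose markers Retn was lower (-0.35, adjusted p = 0.0464). All 6 adipose markers had negative differences (median -0.60), among them the fatty acid carrier Fabp4 at -1.24 (adjusted p = 0.0504). The call of Actn2 was lost without normoxia array 3 or 4 or hypoxia array 2 or 4 (up to 0.0557), and that of Retn without any array but normoxia array 1 or hypoxia array 5 (up to 0.116). Of 12 cartilage markers limma called 0 (median -0.07), 2 had an unadjusted p below 0.05 (32.6% of all genes did), and SAM called 3 (34.5% of all probe sets). Medians without normoxia arrays 2 to 4 were -0.51 for the platelet, 0.18 for the fibroblast, 0.0790 for the macrophage, -0.00068 for the smooth muscle and 0.0753 for the mesothelial markers. They were -0.0299 for the alveolar epithelial, -0.0035 for the cardiac, -0.69 for the adipose and -0.0238 for the cartilage markers, and of all 11 marker lists limma then called Emcn alone. With all arrays the medians of the smooth muscle, mesothelial, alveolar epithelial and cardiac markers were 0.05, 0.34, 0.07 and 0.02. Positive and negative differences then numbered 5 and 4 for the smooth muscle, 9 and 1 for the endothelial and 7 and 2 for the alveolar epithelial markers. They numbered 5 and 0 for the mesothelial and 1 and 11 for the cartilage markers.

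**Figure D5:**
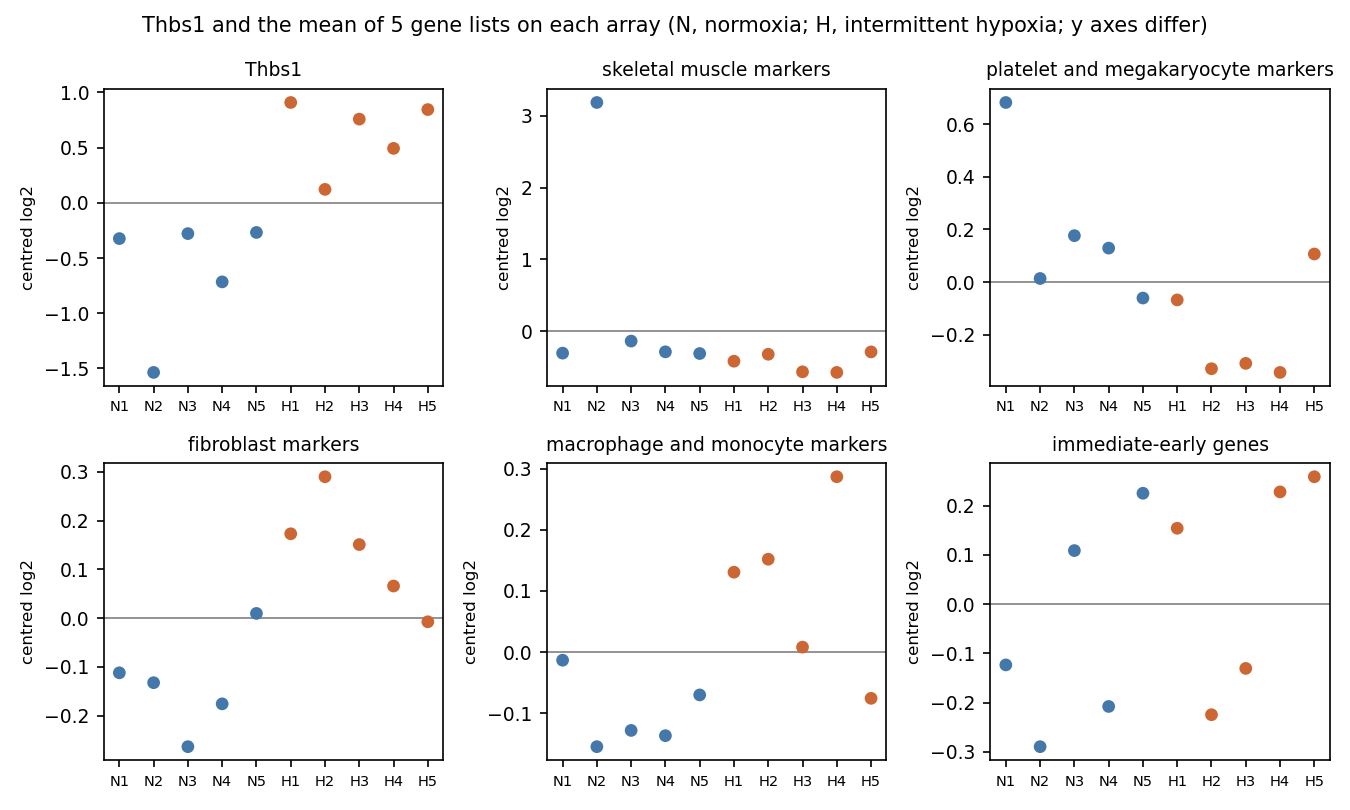
Thbs1 and the mean of 5 gene lists on each array, as log2 values centred on each gene's mean over the 10 arrays. Vertical axes differ between panels. The skeletal muscle markers reach 3.18 on normoxia array 2, and the immediate-early genes range from -0.29 to 0.23 on the normoxia arrays and from -0.22 to 0.26 on the hypoxia arrays.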

How the data were processed

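The authors deposited log2 levels per probe set. Per the submitters' processing notes the tools were affy and RMA, with no version. Since the arrays' standard deviations differ, it is not known whether they were normalized together. Precision is limited by the 10 arrays. The platform annotation gave 1 symbol to 20380 probe sets, several to 691 and none to 1555.

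Groups were compared with limma 3.58.1 in R 4.3.3 (lmFit and eBayes, two-sided, no covariate), with p adjusted by Benjamini-Hochberg across the 22626 probe sets and called below 0.05. No filter was set. Differences between 2 genes' changes were tested by exact permutation of the arrays. Promoters came from RefSeq, GRCm38.p6.

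The members and lists were chosen with earlier results of these data known. Named genes were all members, in each pathway list up to 6 passing genes and 2 others with the smallest p, in each marker list up to 3, the 6 profiles most like Thbs1 and 3 most like each other member that passed. Some genes within the rule are not mentioned, and a few outside it are, such as Cd36 and Cd47.

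Alternatives were quantile normalization, arrays centred on medians, a filter that kept the brighter probe sets (at least the median level), trend and robust options of eBayes, arrayWeights, SAM with 100 permutations, an adjusted p below 0.10, a replicate block, averaging all probe sets per gene, each array left out, and normoxia arrays 2 to 4 left out. SAM with the mean number of false calls was added after seeing the data. On simulated data of 22626 probe sets, 200 of them changed, limma recovered 71% of changes of 0.5 on the log2 scale and 97% of changes of 1, with 6.15% of its 179 calls on unchanged probe sets. The simulation drew independent normal noise for each probe set and no array that stood apart. Its rates need not hold for the real arrays.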

Additional observations from a re-analysis of the deposited data

Results flagged for a closer look

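The high and low samples of each group of 5 were compared with Dixon's critical value of 0.71 in 68 groups of values, and chance flags about 1 in 20 such groups. The second Thbs2 probe set, 1422571_at, was at 5.44 on hypoxia array 4 and at 5.73 to 5.81 on the other hypoxia arrays. The mean of the skeletal muscle markers was 3.18 on normoxia array 2, as centred log2, and -0.31 to -0.14 on the other normoxia arrays. On hypoxia array 4 the mean of the cardiac muscle markers was -0.71 and that of the adipose markers -1.06, while the other hypoxia arrays lay at 0.13 to 0.19 and at -0.24 to 0.04. The probe set 1421811_at, annotated to Pald1 and Thbs1 and therefore outside the choice of probe sets, was higher after intermittent hypoxia by 0.90 on the log2 scale.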

How the results depend on the processing

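With all arrays and limma 2699 probe sets passed. The count was 4132 with arrayWeights, 7816 with SAM, 4521 with SAM and the mean number of false calls (chosen after seeing the data), 4954 at an adjusted p below 0.10, 1755 with a replicate block, 1003 to 4800 without 1 array, and 16 without normoxia arrays 2 to 4. Of the probe sets that passed, 71.2% were higher, or 59.1% after quantile normalization. Of the 9 members 4 passed. The count was 2 after quantile normalization, 2 with the replicate block, 6 with SAM, 4 with SAM and the mean number of false calls, 0 without normoxia arrays 2 to 4 (2 at an unadjusted p below 0.05), and 1 to 4 without 1 array. It was 1 without normoxia array 4, 2 without normoxia array 2 or 3 or hypoxia array 1, 2, 3 or 4, and 4 without normoxia array 1 or 5 or hypoxia array 5. Under the block the calls of Thbs3 (adjusted p = 0.0672) and Sparc (0.0814) were lost. Whether arrays with the same replicate number were paired is not known. Deviations of arrays with the same number correlated from -0.24 to 0.22, and 1 of 5 correlated best with its own number. So few correlations cannot exclude a pairing. Thbs2, near 0 with all arrays, turned to 0.0287 after quantile normalization, to 0.16 without normoxia arrays 2 to 4, and ranged from -0.0582 to 0.0737 without 1 array. Mrtfb turned to 0.0538 without normoxia arrays 2 to 4. Averaging all probe sets of each gene ended the calls of Igfbp7 (adjusted p = 0.124), Srf (0.135), Lox (0.0788), Smoc2 (0.0862), Fosl1 (0.0714), Tgfbi (0.0588), Ccr2 (0.0616) and 2610001J05Rik (0.0563). It brought Sparcl1 (0.0499), Itgb1 (0.0458), Fn1 (0.0240) and Fbln1 (0.0304) past the threshold with positive differences. Ptprz1 (0.0148) and Myocd (0.0335) also came past it, with negative differences of -0.23 and -0.28. Quantile normalization ended, besides those given above, the calls of Ccn5 (adjusted p = 0.0570), Fstl1 (0.0507), Tgfbi (0.151), Ltbp4 (0.0761), Ier3 (0.0704), Col6a1 (0.0822), Mylk (0.0731), Gp1bb (0.0627), Upk3b (0.0586) and Arpc4 (0.102), and brought Fabp4 (0.0409) past the threshold. The cause of these shifts was not tested. The exact tests between genes were not run without normoxia arrays 2 to 4, where 2 against 5 arrays leave few splits.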
